A study of Xenopus laevis with 3 samples.

Results

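Anterior endoderm of Xenopus laevis embryos was compared here between stage 39 and stage 30, in the Cy5 channel of spotted cDNA arrays that also carried posterior endoderm in Cy3. The comparison took the anterior channel of 2 stage 39 arrays and 2 stage 30 arrays, which are 4 of the 12 channels of the series and come from 2 of its 3 samples. Stage 39 anterior endoderm and stage 30 anterior endoderm were both dissected by hand from embryos with no genotype, strain or treatment given in the labels. Liver, pancreas, stomach, lung and gallbladder arise from the front of the whole endoderm and the intestine from its hind end. The study looked for genes tied to these endodermal organs. The arrays of its remaining stage, stage 46, were normalised with these 4, entered the estimate of the spread and, through their flags, had a part in which probes could be tested.

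At the earlier of these stages the Xenopus endoderm is still a mass of yolk-laden cells around a narrow gut cavity, with the liver diverticulum as its first visible organ. By the later stage the liver and pancreas buds and the stomach can be told apart, while the gut has yet to coil and the tadpole has yet to feed. Liver cells then make plasma proteins for export and gain the enzymes of sugar and amino acid metabolism, and the outer epithelia of the embryo, which lie next to the dissected tissue, carry their own keratins and plaque proteins.

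The limits of the arrays come first. Arrays A and B of a stage are called replicates here, but the labels do not say whether they held separate dissections, so every p-value measures the spread between hybridisations only. The scanner gain was chosen slide by slide, so stage, slide and gain cannot be told apart. Median Cy5 intensity was 949 and 805 on the stage 39 arrays, against 2988.5 and 1480 on the stage 30 arrays. Between 53.4% and 57.2% of spots were well above background in Cy5 at stage 39, and 39.7% to 60.4% at stage 30, where well above background means that the spot exceeded its local background by over 2 background SDs. Spots with over 10% saturated Cy5 pixels numbered 27 and 19 at stage 39, against 652 and 281 at stage 30, and saturation holds a bright signal down. After normalisation the Cy5 levels of the 2 stage 39 arrays correlated across probes with r = 0.943 and those of the 2 stage 30 arrays with r = 0.884, while pairs from different stages gave 0.772 to 0.843. Endodermal markers were present at both stages. The probe for the endoderm factor XGATA-6B read 12.27 and 12.12 at stage 39, against 12.48 and 12.08 at stage 30, and the probe for endodermin, an early endoderm protein of Xenopus, averaged 12.16 at stage 39, against 11.77 at stage 30, with stages that overlapped.

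All levels below are normalised log2 intensities, a difference is stage 39 minus stage 30 on that scale, and its error is the SE of the fit. Of 9615 probes tested by the separate-channel fit of limma, 1069 passed an adjusted p of 0.05, which is 11.1%. Of these, 498 were higher at stage 39 (5.18%) and 571 were lower (5.94%), and 426 (4.43%) and 519 (5.4%) of them differed by over 2-fold. The levels of the 2 stages did not overlap for 5527 probes (57.5%) and for all 1069 called ones. Since every called probe met it, a lack of overlap adds no support to any call below. The median difference over all probes was 0.06 with a median SE of 0.32. A probe entered when it was well above background on both arrays of at least 1 stage, so a probe seen at 1 stage only had passed through the stage where it was high. In bulk tissue fewer cells of a type and less RNA per cell cannot be told apart.

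An epidermal keratin had the most negative fitted difference of the named falls, and other genes of outer epithelia fell with it. The probe annotated as keratin, type I cytoskeletal 47 K, an intermediate filament protein of embryonic skin in Xenopus, read 8.54 and 8.39 at stage 39, against 14.22 and 13.77 at stage 30. Both stage 39 arrays lay far under both stage 30 arrays, and the difference of -5.53 (SE 0.53, adjusted p = 0.000171) is 46.3-fold. The probe for keratin, type I, epidermal read 9.45 and 9.83 at stage 39, against 12.38 and 12.94 at stage 30, a difference of -3.02 (SE 0.37, adjusted p = 0.000633). Its brighter probe read 11.98 and 11.64 at stage 39, against 12.33 and 12.92 at stage 30, and did not pass (adjusted p = 0.092). The 2 probes thus differ in size but not in direction.

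Periplakin, which links keratins to desmosomes, read 9.80 and 10.31 at stage 39, against 12.84 and 12.89 at stage 30 on its brighter probe, a difference of -2.81 (SE 0.33, adjusted p = 0.000536). Both of its probes were called lower. UVS.2, the hatching enzyme of Xenopus, had 2 probes called lower, 1 called higher and 2 not called out of 5, with differences between -2.74 and 0.88, so its direction was not shared by its probes. Of 7 members of the epidermis list, 6 were tested. By the brightest probe 3 were lower (50%, beside 5.94% of all probes) and 0 higher, with a median of -1.25 beside 0.06 over all probes. Keratin 8 differed by -0.80 and keratin 18 by -1.11 without passing. The summed level of the 6 members was 20837 and 20867 at stage 39, against 66736 and 57385 at stage 30, in normalised linear units.

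A second list, of other proteins of epithelial plaques and cornified envelopes, was drawn up after these values had been seen and is a description only. Of 11 members 8 were tested, 4 were lower (50%, beside 5.94% of all probes) and 0 higher, with a median of -1.26. The 4 were epiplakin, envoplakin, uroplakin III and desmoyokin. Of 12 desmoyokin probes 3 were called lower, with differences of -1.41 to -0.27 over all 12. Epiplakin, a plakin of epithelial cells, fell on both of its probes. Its brighter probe read 9.84 and 10.64 at stage 39, against 12.73 and 12.68 at stage 30, a difference of -2.47 (SE 0.33, adjusted p = 0.00114). Envoplakin, the partner of periplakin in the cornified envelope of mammals, fell on 3 of 3 probes, with differences of -1.76 to -1.33. Uroplakin III, a membrane plaque protein of mammalian urothelium, fell by 2.18 (SE 0.42, adjusted p = 0.00828). Plakoglobin (-0.28) and plakophilin 2 (0.39), which belong to desmosomes of many tissues, did not pass. The posterior channel of the same slides showed the same list at a median of -1.05 and the epidermis list at -0.81. The part that carried-over surface tissue has in these falls was not tested. Without stage 39 array A, 1 of the 4 members of this second list kept its call, and without stage 39 array A or without array B 2 of the epidermis list did.

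H,K-ATPase, an ion pump that exchanges protons for potassium, matched a toad protein and fell by an amount that has only a lower bound. All 4 of its probes, which lie in 4 different print blocks, were lower at stage 39, with differences of -5.45 to -3.11. The named probe read 8.89 and 9.09 at stage 39, against 14.30 and 13.57 at stage 30. It was not well above background on either stage 39 array. By the mean levels the fall is thus at least 30.8-fold (difference -4.94, SE 0.35, adjusted p = 4.2e-05). Up to 28% of its pixels were saturated on an array. Here and below, at least covers the unknown level of the dim stage only, and not the spread between arrays. Without stage 30 array A the difference was -4.54. A protein annotated as IgG Fc bind, a shortened name, also fell on all 4 of its probes, with differences of -4.36 to -1.88. Its named probe read 9.30 and 9.23 at stage 39, against 13.76 and 13.09 at stage 30 (difference -4.16, SE 0.35, adjusted p = 7.52e-05). Galectin-3, a lectin that binds galactosides, fell on both of its probes. The brighter one read 11.59 and 12.13 at stage 39, against 15.04 and 14.93 at stage 30 (difference -3.13, SE 0.32, adjusted p = 0.000279), with up to 63% of its pixels saturated on an array. In each of these genes the stages lay apart on every probe, as on all called probes. The H,K-ATPase probes at -5.45, -4.94 and -3.33 were not well above background on either stage 39 array. The same held for the IgG Fc bind probes at -4.36 and -3.73. Such probes entered the test through stage 30 alone, so their separation adds no support. In the same sense, their differences are lower bounds on the size of the fall.

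Other large falls rested on fewer probes. PAR6A, a scaffold of the cell polarity complex, read 8.64 and 9.05 at stage 39, against 12.99 and 12.95 at stage 30 (difference -4.12, SE 0.30, adjusted p = 4.2e-05), and 2 of its 3 probes were called. The sodium-dependent multivitamin transporter, a carrier of biotin and pantothenate, had 1 probe, which read 8.68 and 8.71 at stage 39, against 12.72 and 12.31 at stage 30 (difference -3.82, SE 0.40, adjusted p = 0.000301). In both, the arrays of a stage lay close together and the stages far apart. A name shortened to deoxyribonu fell on 2 of 3 probes, by the mean levels at least 15.4-fold on the named one. A scavenger receptor with a shortened name fell by at least 10.5-fold on its only probe, also by the mean levels. Neither was well above background on either stage 39 array. Cystatin B, an inhibitor of cysteine proteases, had a difference of -3.03 (SE 0.23, adjusted p = 5.31e-05), hyaluronan synthase 1, which makes hyaluronan, one of -3.03 (SE 0.36, adjusted p = 0.000536), and LPIN2, a lipin of lipid metabolism, one of -3.11 (SE 0.37, adjusted p = 0.000536). Cystatin B and LPIN2 each had a second probe that did not pass, at -0.18 and 0.29. The alpha chain of brain spectrin, part of the membrane skeleton, fell by 3.02 on 1 of 3 probes, the others differing by -0.47 and -0.09.

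A pair of the 15 named falls lost their call without at least 1 array. The large chain of m-calpain, a calcium-dependent protease, read 8.93 and 8.43 at stage 39, against 11.20 and 12.86 at stage 30 (difference -3.35, SE 0.72, adjusted p = 0.0135). It no longer passed without stage 30 array B (-2.53, adjusted p = 0.0544), or when stage 39 array B was left out (-3.08, adjusted p = 0.0692). A probe for the ATP synthase A chain, a mitochondrial protein, read 11.23 and 8.70 at stage 39, against 13.81 and 12.68 at stage 30 (difference -3.28, SE 0.64, adjusted p = 0.00863, up to 35% saturated pixels on an array), and did not pass without stage 39 array B (-2.02, adjusted p = 0.0732). It is 1 of 8 probes for that chain, another of which was called higher (0.94). The other 13 named falls passed whichever 1 of the 4 arrays was left out.

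**Figure D1:**
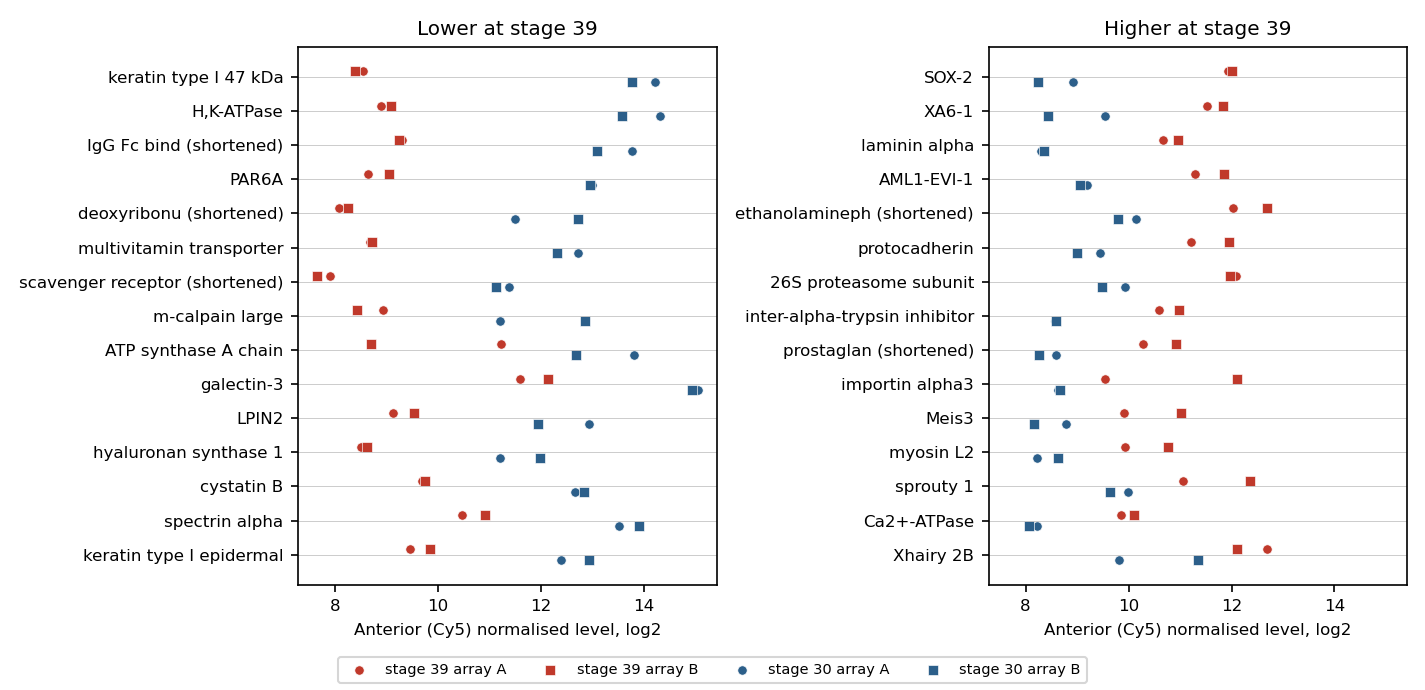
Normalised anterior (Cy5) levels on the log2 scale for the 15 annotated names with the largest falls (left) and the 15 with the largest rises (right), 1 point per array, with stage 39 in red above stage 30 in blue and circles for array A and squares for array B. Keratin 47 K sits near 8.5 on both stage 39 arrays and near 14 on both stage 30 arrays, while importin alpha3 lies at 9.54 on 1 stage 39 array and 12.10 on the other.

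The largest named rise was that of SOX-2, a transcription factor of the embryonic foregut and nervous system. Its called probe read 11.93 and 12.01 at stage 39, against 8.92 and 8.25 at stage 30. The stages lay far apart, and the difference of 3.38 (SE 0.66, adjusted p = 0.00828) is 10.4-fold. The second SOX-2 probe read 11.03 and 11.93 at stage 39, against 9.48 and 9.69 at stage 30, was not well above background on either stage 30 array, and did not pass (difference 1.89, SE 0.71, adjusted p = 0.103). Both SOX-2 probes were higher on both stage 39 arrays, but the second entered the test through stage 39 alone, so its separation adds no support. The call was lost without stage 30 array B (3.06, adjusted p = 0.0512), with stage 39 array A left out (3.44, adjusted p = 0.106), and with stage 39 array B left out (3.34, adjusted p = 0.0931).

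Rises that passed whichever array was left out numbered 7 of the 15 named. A laminin alpha chain, part of the basement membrane, read 10.67 and 10.96 at stage 39, against 8.31 and 8.36 at stage 30 (difference 2.48, SE 0.30, adjusted p = 0.000536). The probe matched to the human fusion AML1-EVI-1, which joins a pair of transcription factors in leukaemia, read 11.28 and 11.85 at stage 39, against 9.20 and 9.06 at stage 30 (difference 2.44, SE 0.31, adjusted p = 0.000724). The annotation does not say which of the joined genes the frog clone resembles. The heavy chain of inter-alpha-trypsin inhibitor, a plasma protein that the liver secretes and that stabilises hyaluronan, read 10.59 and 10.98 at stage 39, against 8.57 and 8.59 at stage 30 (difference 2.21, SE 0.28, adjusted p = 0.000706). A protocadherin, a cell adhesion protein, rose by 2.36, a regulatory subunit of the 26S proteasome by 2.31 on 1 of 4 probes, and 2 shortened names, ethanolamineph and prostaglan, by 2.39 and 2.17. For prostaglan this was 1 of 2 probes, the other differing by -0.01. The proteasome probe was not well above background on either stage 30 array, which makes its rise at least 4.96-fold by the mean levels.

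The remaining named rises lost their call without at least 1 array. XA6-1 had a probe called higher by 2.70 and another called lower by 1.15, so its direction is not settled by its probes. The first was not well above background on either stage 30 array, which makes its rise at least 6.49-fold by the mean levels. It lost its call without stage 30 array B (2.15), with stage 39 array A left out (2.87) and with stage 39 array B left out (2.53). Importin alpha3, a nuclear import receptor, read 9.54 and 12.10 at stage 39, against 8.64 and 8.67 at stage 30 (difference 2.16, SE 0.58, adjusted p = 0.0336), and stood at 0.88 without stage 39 array B (adjusted p = 0.173), the only array on which it was high. Its call was also lost without stage 30 array A (2.10, adjusted p = 0.0806) or B (2.19, adjusted p = 0.111). Meis3, a homeodomain factor of the Xenopus hindbrain, rose by 1.99 (SE 0.35), and sprouty 1, an inhibitor of growth factor signalling, by 1.91 on 1 of 4 probes (SE 0.38, differences down to -0.85 on the others). Without stage 39 array B their differences were 1.43 (adjusted p = 0.0728) and 1.24 (adjusted p = 0.0809). Xhairy 2B, a target of Notch signalling, read 12.70 and 12.11 at stage 39, against 9.82 and 11.34 at stage 30 (difference 1.82, SE 0.41, adjusted p = 0.016), and lost its call without stage 39 array A (1.54, adjusted p = 0.191) or B (2.11, adjusted p = 0.0749). Without stage 30 array A its difference was 1.06. The Ca2+-ATPas probe, a shortened name for a calcium pump, rose by 1.84 and stood at 1.71 without stage 39 array B (adjusted p = 0.0583). Of the 15 named rises 6 lie in print block 16 of the array, where 1 of the 15 named falls lies. That block held 553 tested probes, 29 of them called higher and 60 lower. The part of the block in them was not tested. All 15 passed once every block had been centred on the same median. That centring hardly moved the rises in block 16 (Meis3 from 1.99 to 2.00), so it does not show the part of that block.

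By the brightest probe, proteins that the liver secretes had differences above 0 in all but complement C3. Of 10 members tested, 3 were higher (30%, beside 5.18% of all probes) and 0 lower by that probe, with a median difference of 0.61. All probes of serotransferrin ran from -0.19 to 0.54 and those of complement C3 from -1.15 to 1.05. Apolipoprotein C-I, which rides on lipoproteins, read 13.43 and 13.52 at stage 39, against 12.34 and 11.23 at stage 30 (difference 1.69, SE 0.34, adjusted p = 0.00973). The passing probe of apolipoprotein E, a ligand for lipoprotein receptors, read 12.96 and 13.26 at stage 39, against 11.98 and 11.13 at stage 30 (difference 1.55, SE 0.30, adjusted p = 0.0082), while its brightest probe differed by 0.32 with stages that overlapped. Fibrinogen, the clot precursor, rose by 0.98 (SE 0.28, adjusted p = 0.0452). The passing probe of complement C9 read 12.40 and 11.39 at stage 39, against 10.14 and 10.99 at stage 30 (difference 1.33, SE 0.36, adjusted p = 0.0343). Serotransferrin (0.54) and complement C3 (-0.44, with up to 95% saturated pixels on an array) did not pass, and plasminogen stood at 0.04. Apolipoproteins C-I and E lost their call without stage 39 array A and also without array B, and 1 of the 3 members kept its call in each of those fits. Complement C9 stood at 0.91 (adjusted p = 0.119) without stage 30 array A and at 0.83 (adjusted p = 0.311) without stage 39 array A.

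Enzymes of liver metabolism went the other way. Of 12 members 9 were tested, 5 were lower (55.6%, beside 5.94% of all probes) and 0 higher, with a median of -1.32. Aldolase B, which splits fructose phosphates in liver and gut, was lower on 5 of 5 probes, in 5 print blocks, with differences of -2.73 to -1.41. Its brightest probe read 12.73 and 12.79 at stage 39, against 14.76 and 14.78 at stage 30 (difference -2.01, SE 0.28, adjusted p = 0.00145), with up to 82% of pixels saturated on an array. Its dimmest probe, with no saturated pixels, read 10.46 and 10.37 at stage 39, against 12.13 and 11.52 at stage 30 (difference -1.41). The stages did not overlap on any of the 5 probes, which holds for every called probe and adds no support.

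Serine dehydratase, which breaks serine down to pyruvate, read 9.84 and 9.66 at stage 39, against 12.49 and 12.90 at stage 30 (difference -2.95, SE 0.30, adjusted p = 0.000275), on 1 of 3 probes. Pyruvate carboxylase, the entry enzyme of gluconeogenesis, read 11.67 and 12.66 at stage 39, against 14.28 and 15.07 at stage 30 (difference -2.51, SE 0.36, adjusted p = 0.00177), also on 1 of 3 probes, the others reaching 0.68. Up to 46% of the pixels of its named probe were saturated on an array. Guanidinoacetate methyltransferase, which makes creatine, read 12.83 and 13.11 at stage 39, against 14.47 and 14.41 at stage 30 (difference -1.47, SE 0.40, adjusted p = 0.0357, up to 41% saturated pixels), and its 4 probes lay between -1.47 and -0.62. In these enzymes the stages lay apart on the named probe, as on all called probes, while the other probes of a name often differed less. Hepatic arginase, of the urea cycle, fell by 1.32 (SE 0.30, adjusted p = 0.0178) on 1 of 3 probes. Glutamine synthetase, which binds ammonia, fell on 2 of 4 probes, its brightest differing by -0.35. Glucose-6-phosphatase (-0.22), histidine ammonia-lyase (-0.25) and the brightest probe of phosphoenolpyruvate carboxykinase (0.19) did not pass. Without stage 39 array A, and likewise without array B, 3 of the 5 members kept their call. The summed level of the 9 members was 24983 and 30570 at stage 39, against 87908 and 100173 at stage 30.

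**Figure D2:**
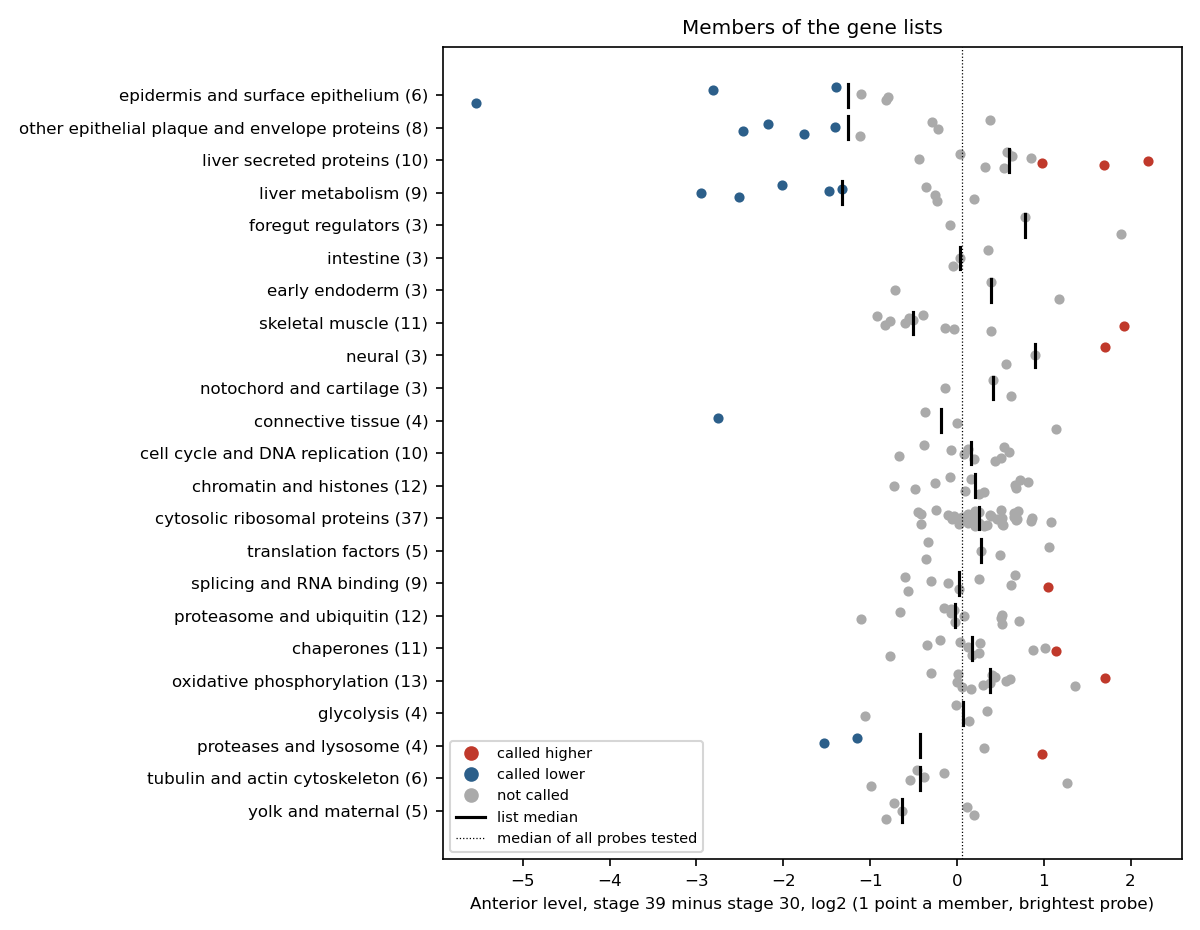
Stage 39 minus stage 30 difference in anterior endoderm on the log2 scale, 1 point per member of each gene list from the member's brightest probe, with the number tested in brackets, red for members called higher, blue for called lower and grey for not called. Black bars mark list medians, which run below -1 for the epidermis, plaque and liver metabolism lists and lie near the dotted median of all probes, 0.06, for most lists of general cell function.

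Regulators of the foregut and of early endoderm were too few for a count of calls to tell much. Of 4 foregut members 3 were tested, and of 5 early endoderm members 3. By the brightest probe 0 passed in either list, which beside 11.1% of all probes does not show a lack of change. XGATA-6B stood at -0.08 and COUP-TF2, an orphan nuclear receptor, at 0.79. VegT, the T-box factor that starts endoderm formation in Xenopus, was lower on 1 of 2 probes, which read 10.59 and 10.52 at stage 39, against 11.68 and 12.16 at stage 30 (difference -1.37, SE 0.34, adjusted p = 0.0235). Its other, brighter probe differed by -0.71 (adjusted p = 0.175). The VegT call was lost without stage 30 array B (-1.12, adjusted p = 0.0919), with stage 39 array A left out (-1.40, adjusted p = 0.131) and with stage 39 array B left out (-1.33, adjusted p = 0.12). Xcer, the head inducer cerberus, stood at 1.17 (adjusted p = 0.0511). Villin, a protein of the intestinal brush border, was lower on 1 of 3 probes by 1.27 (SE 0.31, adjusted p = 0.0224), which was lost without stage 39 array A (-0.97) or B (-1.57). The caudal factor xcad-1 stood at 0.36. Somatostatin 1, the hormone of islet delta cells, read 11.87 and 11.52 at stage 39, against 11.51 and 11.83 at stage 30, with stages that overlapped. Blood markers, globins included, were not among the lists compared here, so blood was not assessed.

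Markers of other tissues had at most 1 call per list by the brightest probe. These calls were 9.09% of muscle, 33.3% of neural and 25% of connective tissue members tested, beside 11.1% of all probes. Of 11 muscle members tested 1 was higher and 0 lower, with a median of -0.51 and a summed level of 29193 and 32084 at stage 39, against 35213 and 39378 at stage 30. Of the 24 muscle probes tested 3 were called higher and 1 lower. Among the rises, desmin had 1 of 3 probes called (1.06) and the SERCA calcium pump 1 of 5 (0.94). The muscle member that rose by its brightest probe was myosin L2, a regulatory light chain, which read 9.93 and 10.77 at stage 39, against 8.21 and 8.63 at stage 30 (difference 1.93, SE 0.53, adjusted p = 0.0365). Its call was lost without any 1 of the 4 arrays, with differences of 1.49 to 2.37. Fast skeletal troponin C, a calcium sensor of the same fibres, fell by 1.49 (SE 0.27, adjusted p = 0.00579) on 1 of 4 probes, and lost its call without stage 39 array A (adjusted p = 0.0877) or B (adjusted p = 0.057). Of 3 neural members 1 rose, complexin 2, a regulator of synaptic vesicle release, which read 10.25 and 10.04 at stage 39, against 8.45 and 8.45 at stage 30 (difference 1.70, SE 0.27, adjusted p = 0.00312), and which lost its call without stage 39 array A (1.61, adjusted p = 0.0625). The connective tissue proteoglycan lumican read 9.22 and 9.0 at stage 39, against 12.23 and 11.49 at stage 30. It was not well above background on either stage 39 array. By the mean levels its fall was at least 6.74-fold (difference -2.75, SE 0.49, adjusted p = 0.00569). It lost its call without stage 39 array A (-2.87, adjusted p = 0.0684) or B (-2.62, adjusted p = 0.0732). SPARC (0.00) and vimentin 4 (-0.36) did not pass. The highest of the 4 connective tissue members tested stood at 1.14 and did not pass either. With print blocks set equal, 1 member of that list was called higher and 1 lower. The part of other tissues in these values was not tested.

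Most groups of general cell function had few calls by the brightest probe, beside 11.1% of all probes. None of 37 cytosolic ribosomal proteins passed by the brightest probe in either direction, with a median of 0.25 and differences of -0.45 to 1.09 (without stage 30 array A 9 were called higher and 1 lower), where L23 came closest (adjusted p = 0.051). None of 10 cell cycle members passed by the brightest probe, with a median of 0.16. Cyclin A2 rose by 1.53 on 1 of 2 probes (SE 0.45, adjusted p = 0.0482). A second probe of topoisomerase II, which untangles DNA in dividing cells, fell by 2.26 (SE 0.27, adjusted p = 0.000536) while its brightest probe stood at 0.54. For the mitotic kinase CDC2, 1 of 9 probes rose by 1.17, a call lost without stage 39 array A (1.01, adjusted p = 0.145) or B (1.33, adjusted p = 0.0599). Of 13 members of oxidative phosphorylation 1 was higher (7.69%, beside 5.18% of all probes), with a median of 0.38. That member was ATP synthase protein 8, which read 10.34 and 11.70 at stage 39, against 9.52 and 9.11 at stage 30 (difference 1.70, SE 0.38, adjusted p = 0.0154), and stood at 1.02 (adjusted p = 0.121) without stage 39 array B and at 1.5 (adjusted p = 0.0755) without stage 30 array B. None of 12 chromatin members and none of 4 glycolysis members passed by the brightest probe. Beside 11.1% of all probes, 0 calls in lists as small as 4, 10 or 12 members tell little about them. On 1 of 2 probes each, histone H3 (1.19) and HMG1 (1.15) were called higher and histone H2A.Z (-1.32) lower. These counts come from the separate-channel limma fit, and at an unadjusted p under 0.05 that fit took 2745 of all 9615 probes.

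Among chaperones 1 of 11 members rose (9.09%, beside 5.18% of all probes), the disulfide isomerase A6, by 1.14 (SE 0.30, adjusted p = 0.0334). The related A3 rose on 1 of 6 probes by 1.36 (SE 0.26, adjusted p = 0.00744). Its other probes were not called, and their differences went down to -1.12. Both fold secreted proteins in the endoplasmic reticulum. Of 4 lysosomal members tested 2 were lower and 1 higher (75% called, beside 11.1% of all probes). Granulin, a growth factor processed in lysosomes, read 10.05 and 10.25 at stage 39, against 11.36 and 12.01 at stage 30 on its brightest probe (difference -1.53, SE 0.45, adjusted p = 0.0489), and 2 of its 3 probes were called lower. The beta chain of hexosaminidase, which trims glycolipids, fell by 1.15 (SE 0.31, adjusted p = 0.0355), and the lysosomal protective protein rose by 0.98 (SE 0.24, adjusted p = 0.0252). On its called probe granulin was not well above background on either stage 30 array. None of these 3 kept its call without stage 39 array A or without array B, and the same holds for both disulfide isomerases. Ferritin heavy chain, which stores iron, was lower on 3 of 6 probes, and all 6 lay between -1.69 and -0.72. The probe at -1.69 lost its call without stage 30 array B (adjusted p = 0.0512), stage 39 array A (adjusted p = 0.116) or stage 39 array B (adjusted p = 0.19).

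Posterior endoderm on the same slides served to show where the anterior change differed. In the posterior channel 682 probes (7.09%) passed between the same stages, 360 higher (3.74%) and 322 lower (3.35%). The difference between the anterior and the posterior change passed for 5978 probes (62.2%), since both channels share a spot and the SE of that difference had a median of 0.10. It exceeded 2-fold in 183 probes where the anterior change lay above the posterior one (1.9%) and in 595 where it lay below (6.19%). Over the 5978 probes that passed this test, the anterior and the posterior change differed by a median size of 0.52. All 15 of the largest named falls were called lower in posterior endoderm too, and 11 of the 15 rises were called higher there. The channels share their spots, with an intraspot correlation of 0.954, so the posterior calls are not independent of the anterior ones. Keratin 47 K fell by 5.14 in posterior endoderm and H,K-ATPase had a posterior difference of -4.09.

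Larger anterior changes stood out for a few genes. SOX-2 rose by 3.38 in anterior endoderm, while its posterior difference was 1.23 and did not pass (adjusted p = 0.304), and the changes differed by 2.16 (SE 0.20, adjusted p = 2.52e-06). The AML1-EVI-1 probe rose by 2.44 in anterior endoderm, against a posterior difference of 0.23, a gap of 2.21 (SE 0.09, adjusted p = 1.27e-08). Complexin 2 had an anterior rise of 1.70 and a posterior difference of 0.23. The multivitamin transporter had -3.82 in anterior and -1.56 in posterior endoderm, a gap of -2.26 (SE 0.12, adjusted p = 4.45e-08), and PAR6A had -4.12 and -2.63.

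By the brightest probe the posterior change lay above the anterior one, past the test, in 8 of 9 liver metabolism members and 7 of 10 liver secreted members, beside 31% of all probes with a called gap in that direction. The opposite gap, called for 31.2% of all probes, was seen for pyruvate carboxylase (0.40), inter-alpha-trypsin inhibitor (0.81), plasminogen (0.79) and fibrinogen (0.36). Aldolase B fell by 2.01 in anterior endoderm, against a posterior difference of -0.18 (gap -1.84, SE 0.09, adjusted p = 2.45e-08), and its 5 probes ran from -0.84 to 0.41 in posterior endoderm. Guanidinoacetate methyltransferase had -1.47 in anterior and 0.06 in posterior endoderm, and hepatic arginase -1.32 and -0.04. The liver metabolism list had a median of 0.06 in the posterior channel beside -1.32 in the anterior one. Apolipoprotein E rose by 1.55 in anterior and by 3.99 in posterior endoderm (gap -2.44, SE 0.09, adjusted p = 5.77e-09), and apolipoprotein C-I by 1.69 and by 3.08. The liver secreted list had a median of 1.55 in the posterior channel beside 0.61. VegT had -1.37 in anterior and 0.00 in posterior endoderm. Myosin L2 rose by 1.93 in anterior and by 3.57 in posterior endoderm, and the Ca2+-ATPas probe by 1.84 and by 3.61. Of 11 muscle members 7 had a called gap below 0 and 1 above 0, cardiac actin (0.81), and 3 were not called, while the list median was -0.51 in the anterior and 0.12 in the posterior channel. The dyes were never exchanged, so the gain of each dye on each slide cannot be told apart from these gaps.

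**Figure D3:**
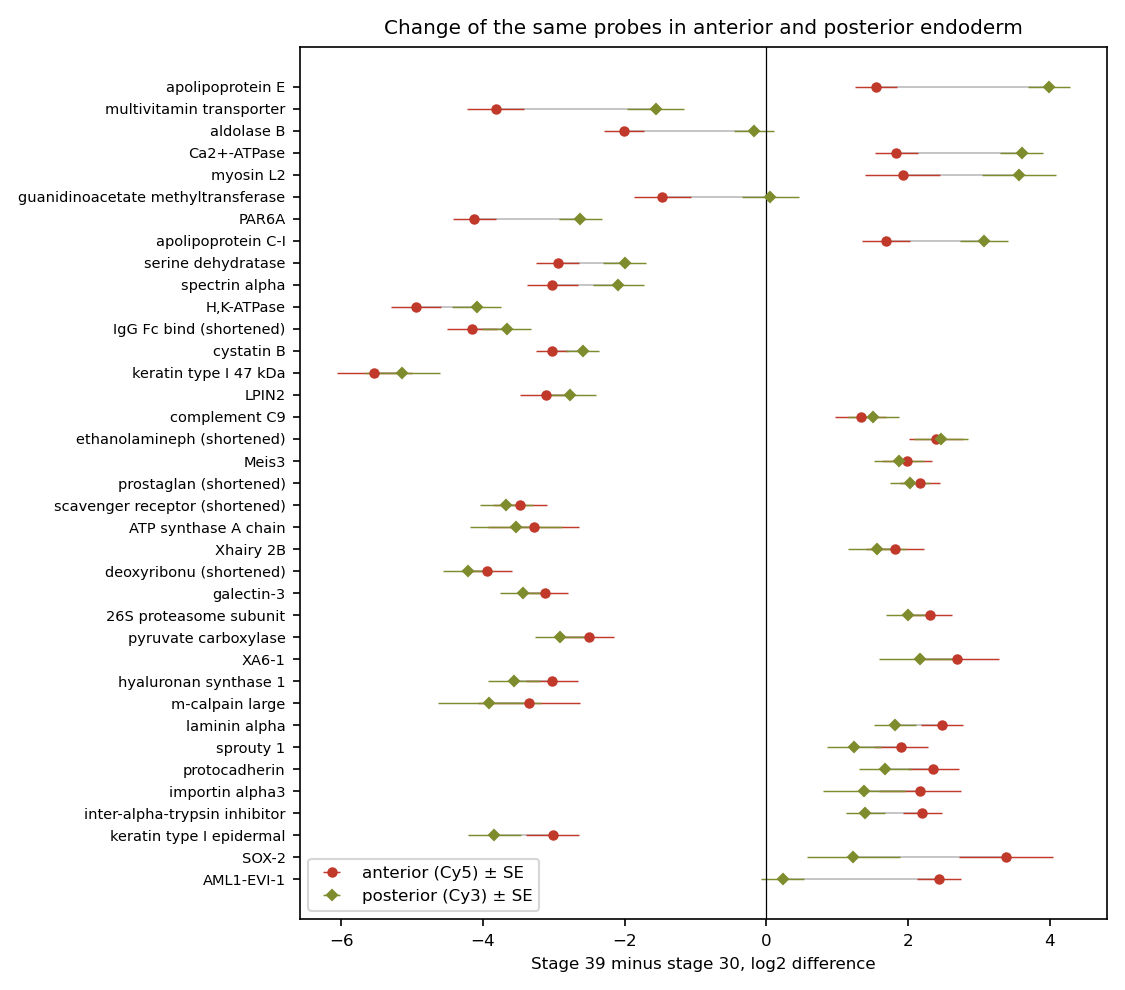
Stage 39 minus stage 30 difference with its SE for the same probes in anterior endoderm (red circles) and posterior endoderm (green diamonds), on the log2 scale, for the 30 largest named changes and the named liver genes, ordered by the gap between the regions. Apolipoprotein E at the top rises further in posterior endoderm (3.99) than in anterior endoderm (1.55), and AML1-EVI-1 at the bottom rises in anterior endoderm (2.44) with a posterior difference of 0.23.

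The place of a probe on the slide also went with its change. The arrays were printed in 32 blocks, which held 6 to 553 tested probes each, and the median difference of a block ran from -0.55 in block 29 to 0.56 in block 6. In block 2, 66 probes were called higher and 8 lower of 426 tested, and in block 29, 1 was called higher and 40 lower of 346. When the median of every block was set equal on every array, 2156 probes passed (22.4%), with 1102 higher and 1054 lower, and 1017 of the 1069 earlier calls were kept. Of the 74 named probes 4 then missed the threshold, those of S8, U4/U6 snRNP, granulin and hexosaminidase beta. By the brightest probe the lists then had 5 liver secreted members higher, 5 liver metabolism members lower and 4 epidermis members lower.

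**Figure D4:**
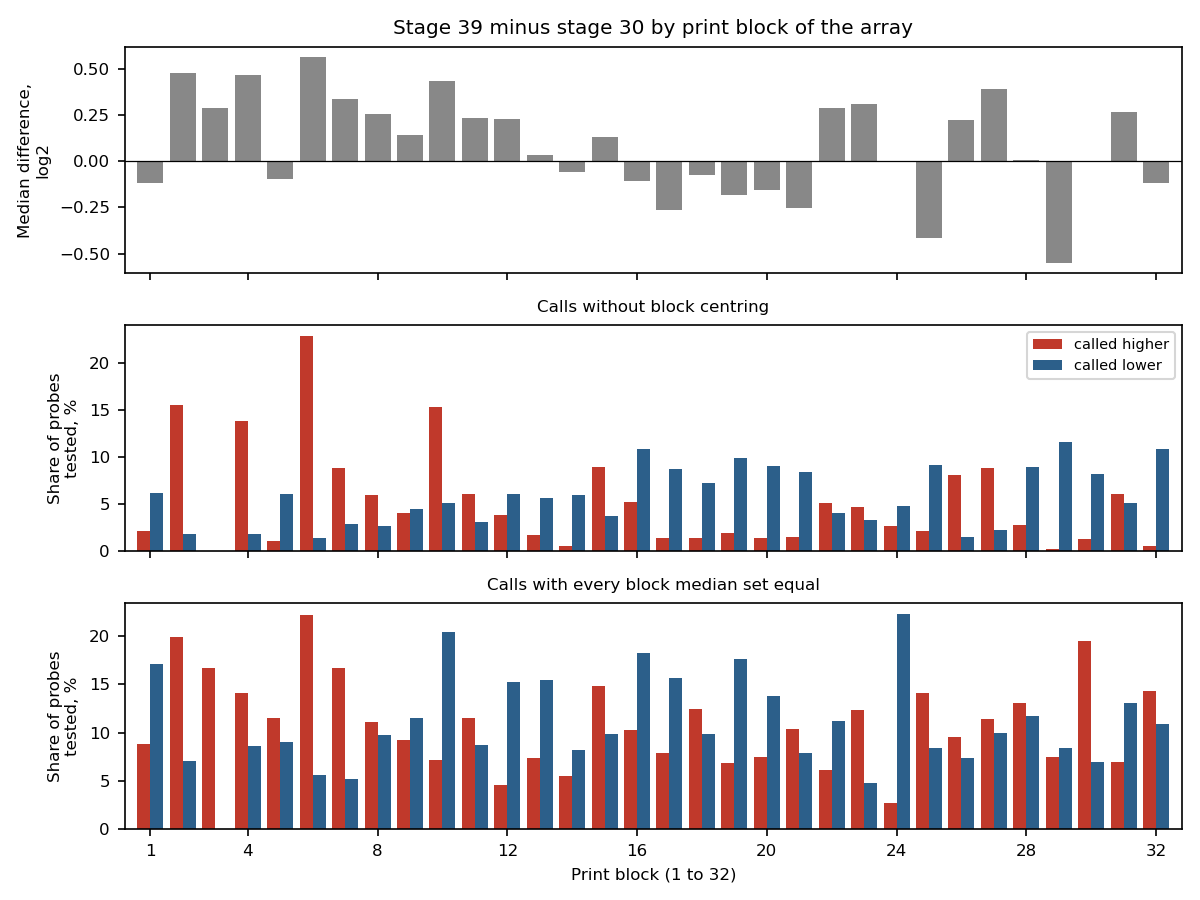
Median stage 39 minus stage 30 difference (top, log2 scale) and share of tested probes called higher (red) or lower (blue) in each of the 32 print blocks, without block centring (middle) and with every block median set equal (bottom), in percent of the probes tested in the block. Without centring, calls higher gather in blocks such as 2 and 6 and calls lower in blocks such as 29.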

How the data were processed

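RNA of anterior (Cy5) and posterior (Cy3) endoderm was hybridised to 6 arrays of 21504 spots, 2 per stage. Per the file headers, the deposited scanner files give linear intensity of each spot and its local background, the percent of saturated pixels and a flag score, neither subtracted nor normalised. Per the labels, spots were read with a GenePix 4000B scanner, and the authors normalised with GeneData Refiner and Expressionist. The deposited table of the authors' ratio values, 1 per stage, was not used, since it holds no separate channel.

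In R 4.3.3 with limma 3.58.1, background was corrected by normexp with offset 50, log ratios were normalised by loess (span 0.3) with 239 control spots at weight 0, and arrays by Aquantile. lmscFit needs complete values, so a probe needed Flags of 0 or above on all 6 arrays (12775 probes, against 14147 on the 4) and a Cy5 signal well above background on both arrays of stage 39 or of stage 30, which left 9615. The fit had 1 mean per stage and region, an intraspot correlation of 0.954, 6 residual and 5.88 prior degrees of freedom. Tests were two-sided with Benjamini-Hochberg adjustment over all probes, and the threshold was 0.05. The number of arrays limits the precision. On simulated data for this comparison with 9615 probes, 20% of 2-fold and 84% of 4-fold changes were recovered, and 3.7% of calls were unchanged probes. The simulated errors were independent between probes, without slide, gain or print block effects. Only 100 probes of each size were changed, alike in both channels. The simulated shares therefore do not give the error rate of the calls on the real arrays.

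Names are best database matches, often of other species, shortened at a fixed width. Of the probes, 8158 had a usable name and 4047 of them were tested, with 2074 names, of which 185 probes were called higher and 268 lower. The text names the 15 names with the largest called difference in each direction by their brightest passing probe, without uninformative or non-vertebrate names, and up to 4 passing members of each list. A list member has the value of its brightest probe. The comparison, the lists and the members were chosen with earlier results of these data known. What counts as 1 name, some exclusions of non-vertebrate names, the plaque list and the centring of print blocks were set after the values had been seen. Names and figures were handled in Python 3.11.15 with pandas 2.3.3, numpy 2.4.6 and matplotlib 3.10.9.

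Array letters were checked as pairs. The A minus B differences correlated between stages 30 and 39 with r = -0.268. Slide and print block effects enter this value too, so it cannot show whether the letters pair samples. The main fit had no letter block. Fits that leave out an array take the intraspot correlation from stages with 2 arrays and assume that the lone array varies like the others. The alternatives were other background corrections, normalisations, filters, the Cy5 channel alone, the 4 arrays alone, an intensity trend, saturated spots left out, each array left out, an array letter block and centred print blocks.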

Additional observations from a re-analysis of the deposited data

Results flagged for a closer look

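The anterior change, stage 39 minus stage 30, was set against the posterior change on the same spots, and 58 of the 74 named probes passed the limma test of that difference, beside 62.2% of all probes tested. Of these, 17 differed by over 2-fold and 41 by less. All values are the anterior change minus the posterior change on the log2 scale, where a negative value puts the anterior change below the posterior one. No stage has enough arrays for a search for stray arrays.

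Among genes higher in anterior endoderm at stage 39, the anterior change was the larger one for AML1-EVI-1 (2.21), SOX-2 (2.16), complexin 2 (1.48) and ATP synthase protein 8 (1.04), all by over 2-fold. It was larger by less for U2 snRNP (0.86), inter-alpha-trypsin inhibitor (0.81), importin alpha3 (0.79), protocadherin (0.68), sprouty 1 (0.67), laminin alpha (0.66) and a cytochrome c oxidase probe (0.62). Small positive gaps were those of XA6-1 (0.52), HMG1 (0.49), histone H3 (0.46), U4/U6 snRNP (0.46), the SERCA calcium pump (0.38), CDC2 (0.34), the 26S subunit (0.31), the ATP synthase A chain probe that was higher (0.31), a translation initiation factor (0.29) and cofilin 2 (0.24). The posterior change was the larger one for apolipoprotein E (-2.44), the Ca2+-ATPas probe (-1.77), myosin L2 (-1.64), apolipoprotein C-I (-1.39), CD63 (-0.73) and disulfide isomerase A6 (-0.66).

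Among genes lower in anterior endoderm at stage 39, the anterior change lay below the posterior one by over 2-fold for the multivitamin transporter (-2.26), fast skeletal troponin C (-2.09), aldolase B (-1.84), guanidinoacetate methyltransferase (-1.53), PAR6A (-1.49), a complex I probe (-1.38), VegT (-1.37), UVS.2 (-1.19) and granulin (-1.13). It lay below by less for serine dehydratase (-0.95), histone H2A.Z (-0.93), spectrin alpha (-0.93), H,K-ATPase (-0.85), IgG Fc bind (-0.49), hexosaminidase beta (-0.47), cystatin B (-0.43), LPIN2 (-0.34), periplakin (-0.29), topoisomerase II (-0.24) and villin (-0.23). The posterior fall was the larger one for epidermal keratin (0.82), uroplakin III (0.78), the conjugating enzyme E2-2 (0.78), m-calpain (0.56), hyaluronan synthase 1 (0.54), envoplakin (0.51), sciellin (0.43), pyruvate carboxylase (0.40), galectin-3 (0.31), epiplakin (0.28) and deoxyribonu (0.27).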

How the results depend on the processing

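No called probe changed direction under any alternative fit across all probes, and the share of higher calls among all calls stayed within 10 points of that reported. The count of 1069 lay between 1020 and 1302 with another background correction, another normalisation, no filter on dim probes, a trend or saturated spots left out. The Cy5 channel alone gave 769 calls, 710 of them shared. Using only the 4 arrays gave 623 calls, with 250 higher, all 250 over 2-fold, and 373 lower. A stricter filter on dim probes, with fewer probes tested, gave 606, with 277 higher (231 over 2-fold) and 329 lower (306 over 2-fold), and 3427 gaps between regions, with 98 higher and 344 lower over 2-fold. Gaps higher by over 2-fold numbered 100 without subtracting background and 275 by plain subtraction. Setting print blocks equal, chosen after seeing the data, gave 2156, with 1102 higher and 1054 lower.

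Leaving out 1 array gave 247 to 2092 calls, with 102 to 1134 higher (102 to 914 over 2-fold) and 145 to 958 lower (145 to 834 over 2-fold). The lowest count came without stage 39 array A, the next, 315, without stage 39 array B, and the highest without stage 30 array A. Gaps between regions numbered 5317 to 6808, of which 192 to 261 were higher and 603 to 751 lower by over 2-fold. The array letter as a replicate block gave 1479 calls, all 1069 among them. Whether the letters pair samples is not known (A minus B differences gave r = -0.268 between stages 30 and 39, -0.125 between 30 and 46 and 0.154 between 39 and 46). Of the 74 named probes, 41 lost their call without stage 39 array A, 44 without stage 39 array B, 22 without stage 30 array B, 8 without stage 30 array A, 24 with the 4 arrays and 14 with Cy5 alone. As a mean over all probes of the name, of 54 named values 12 stayed within the spread, 40 moved and 2 turned, the ATP synthase A chain probe that fell (0.12) and a complex I chain (0.13). The causes were not tested. The stage 30 arrays held more saturated spots, and 2 arrays per stage limit what can be seen.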

Other observations

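Probes of the nuclear import machinery were picked out after the values had been seen, so the counts are a description with no test of their own. Importins and their relatives carry proteins through nuclear pores and act with the small GTPase Ran. Of 22 tested probes under 8 annotated names, 8 were called higher at stage 39 and 0 lower (36.4% higher, beside 5.18% of all probes), and 18 lay above 0. Their median difference was 0.77, with a range of -1.33 to 2.61, and 10 were called higher and 2 lower once print blocks were set equal. RanBP7, an import receptor first described in Xenopus, had 4 of 10 probes called higher, at 1.1, 1.13, 1.75 and 2.61, and the 6 others lay between -0.94 and 0.94. Importin beta was higher on 1 of 2 probes (1.70, adjusted p = 0.0155) and importin alpha-2 on 1 of 2 (1.52, adjusted p = 0.0175). Importin alpha-3, annotated under 2 spellings, had 3 probes, of which 2 were called higher (1.23 and 2.16) and 1 was not (0.15, adjusted p = 0.763). Transportin, which carries RNA-binding proteins, stood at 0.58 and 1.32 without passing. The importin beta and transportin probes were not well above background on either stage 30 array. They entered the test through stage 39 alone, so their values above 0 and the importin beta call add no support. The RanBP7 probe at -0.94 likewise entered through stage 30 alone.

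Splicing and RNA-binding members had 1 of 9 called higher by the brightest probe (11.1%, beside 5.18% of all probes) and a median of 0.03. Without stage 30 array A 3 were higher and 3 lower, and without any 1 of the other arrays 0 were higher. U4/U6 snRNP, of the spliceosome, was higher on 2 of 2 probes (1.05 and 1.95), and ASF-1, a splicing factor, on 1 of 3 (1.39). The U4/U6 probe at 1.05 lost its call without stage 30 array B (adjusted p = 0.0767), stage 39 array A (0.156) or stage 39 array B (0.163), and ASF-1 without stage 39 array A (0.215) or B (0.0728).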
